A study of Mus musculus with 8 samples.

Results

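The genes described here are 10 genes used as marks of long-term blood stem cells: Hlf, Mecom, Prdm16, Mllt3, Fgd5, Procr, Slamf1, Ctnnal1, Pdzk1ip1 and Gda. They were chosen by name, and their values are sums over the transcripts of each gene. They are 10 of the 47311 genes matched in the tables, and all 10 were among the 25543 genes tested. PolyA RNA was sequenced from mouse bone marrow LSK cells, which lack lineage markers and carry Sca1 and Kit on their surface. The 4 groups, with 2 mice each, were old Asxl2 knockout (KO), young Asxl2 KO, old Asxl2 wild type (WT) and young Asxl2 WT. Old mice were over 1 year old and young mice 8 to 12 weeks old, and no treatment is given in the labels. Each KO mouse had a WT littermate of the same age in the same batch, so the 8 mice form 4 litters, 1 old and 1 young litter in each of 2 batches dated by year. The kind of Asxl2 allele, and the cells it is deleted in, are not given in the sources used here.

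Long-term blood stem cells are a small share of the LSK gate, which also holds multipotent progenitors that have lost lasting self-renewal. The stem cells are kept by transcription factors that hold them quiescent and able to renew themselves, and they are told from their progeny by surface proteins and by genes whose reporters mark them. Asxl2 encodes a chromatin protein that partners the histone H2A deubiquitinase Bap1.

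Library totals ran from 45737972 to 80388500 estimated counts, and 26237 to 36175 genes had at least 1 count. Asxl2 (mm10 chromosome 12, 3426857 to 3506852, plus strand) had 4.63 to 5.63 TPM (a level scaled for transcript length and depth) in the 4 KO libraries, against 23.0 to 30.8 TPM in the 4 WT libraries. Kit had 63.4 to 547 TPM and Ly6a, which encodes Sca1, 150.0 to 661 TPM over the 8 libraries, so both genes of the gate were present in each. Litter 1 had 3.33 TPM of Xist in its KO mouse and 3.61 TPM in its WT mouse, while the other 6 libraries had at most 0.0612 TPM. Long genes had relatively lower TPM in KO libraries: the slope of log2 TPM on log2 transcript length over 9825 genes was -0.95 to -0.65 in KO and -0.61 to -0.29 in WT libraries. The shallowest slope, -0.29, belonged to young WT replicate 1. The 2 mice of a group differ in litter and batch as well. The main fits take out the mean difference between batches, and their p values measure the spread that remains, pooled within and between litters. Age differs only between litters, so its p values do not measure the spread between litters alone.

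Pdzk1ip1 and the transcription factor gene Hlf gave the highest levels, and Gda the lowest. Averaged over the 8 libraries, Pdzk1ip1 stood at 213 ± 53.6 TPM, Hlf at 131 ± 49.1 TPM, Procr at 108 ± 46.1 TPM, Mllt3 at 57.4 ± 10.4 TPM and Mecom at 37.8 ± 21.0 TPM (SD, n = 8). Below them stood Prdm16 at 12.3 ± 2.86 TPM, Slamf1 at 11.0 ± 3.91 TPM, Ctnnal1 at 9.26 ± 3.76 TPM, Fgd5 at 5.98 ± 3.76 TPM and Gda at 2.83 ± 2.09 TPM (SD, n = 8). The ranges of each pair of neighbours in this order overlapped. Pdzk1ip1 ranked first in 7 libraries and Hlf in 1, young WT replicate 1. Gda ranked last in 7 libraries, and Fgd5 in 1, old WT replicate 2. Relative to its mean, Gda varied most among the libraries, with a coefficient of variation of 73.8%, and Mllt3 least, with 18.1%.

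Promoter windows were taken from RefSeq (assembly GRCm38.p6), from 250 bases before to 50 bases after each start, and all 10 genes matched. Those below are shown because Mecom and Mllt3 have RNA from an upstream and an internal start, and because Mecom, Fgd5, Gda and Slamf1 are the genes called between KO and WT. They run 5′ to 3′ on the gene's strand, and capitals mark the MEIS motif TGACAG or its reverse complement CTGTCA.
Mecom upstream start, chr3:30509710-30510009, minus strand: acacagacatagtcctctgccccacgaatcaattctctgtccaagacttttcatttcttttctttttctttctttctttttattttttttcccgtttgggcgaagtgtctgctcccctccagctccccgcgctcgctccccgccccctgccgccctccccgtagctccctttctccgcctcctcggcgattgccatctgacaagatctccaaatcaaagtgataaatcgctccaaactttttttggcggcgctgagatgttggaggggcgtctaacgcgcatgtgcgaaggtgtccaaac
Mecom internal start, chr3:30013155-30013454, minus strand: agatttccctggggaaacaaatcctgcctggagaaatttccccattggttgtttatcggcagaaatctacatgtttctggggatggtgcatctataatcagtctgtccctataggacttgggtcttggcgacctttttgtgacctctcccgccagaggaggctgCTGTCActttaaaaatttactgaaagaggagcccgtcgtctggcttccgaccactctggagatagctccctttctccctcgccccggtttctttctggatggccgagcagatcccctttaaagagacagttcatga
Mllt3 upstream start, chr4:88033358-88033657, minus strand: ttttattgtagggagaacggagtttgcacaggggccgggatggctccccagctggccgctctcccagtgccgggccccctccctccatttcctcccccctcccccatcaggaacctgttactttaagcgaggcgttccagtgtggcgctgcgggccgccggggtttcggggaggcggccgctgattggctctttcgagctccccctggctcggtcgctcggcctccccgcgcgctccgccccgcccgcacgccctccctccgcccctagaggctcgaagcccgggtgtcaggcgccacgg
Mllt3 internal start, chr4:87806274-87806573, minus strand: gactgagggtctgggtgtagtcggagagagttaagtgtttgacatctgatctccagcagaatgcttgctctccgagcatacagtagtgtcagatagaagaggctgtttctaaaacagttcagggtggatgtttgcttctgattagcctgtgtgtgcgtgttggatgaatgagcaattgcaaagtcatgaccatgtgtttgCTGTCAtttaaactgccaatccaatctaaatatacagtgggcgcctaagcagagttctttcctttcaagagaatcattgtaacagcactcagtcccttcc
Fgd5, chr6:91978715-91979014, plus strand: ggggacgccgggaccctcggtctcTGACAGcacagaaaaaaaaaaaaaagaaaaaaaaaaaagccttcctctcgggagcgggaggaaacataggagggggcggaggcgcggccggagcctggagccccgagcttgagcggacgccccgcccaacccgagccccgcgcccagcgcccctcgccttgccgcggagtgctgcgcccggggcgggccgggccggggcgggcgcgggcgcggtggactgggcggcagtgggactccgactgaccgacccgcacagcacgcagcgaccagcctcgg
Gda, chr19:21472612-21472911, minus strand: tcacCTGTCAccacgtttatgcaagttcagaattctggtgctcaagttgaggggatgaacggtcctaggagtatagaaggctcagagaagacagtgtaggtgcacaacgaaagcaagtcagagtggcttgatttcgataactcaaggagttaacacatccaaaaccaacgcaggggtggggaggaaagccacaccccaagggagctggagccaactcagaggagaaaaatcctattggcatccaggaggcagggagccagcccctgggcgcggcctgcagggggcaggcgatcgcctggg
Slamf1, chr1:171766882-171767181, plus strand: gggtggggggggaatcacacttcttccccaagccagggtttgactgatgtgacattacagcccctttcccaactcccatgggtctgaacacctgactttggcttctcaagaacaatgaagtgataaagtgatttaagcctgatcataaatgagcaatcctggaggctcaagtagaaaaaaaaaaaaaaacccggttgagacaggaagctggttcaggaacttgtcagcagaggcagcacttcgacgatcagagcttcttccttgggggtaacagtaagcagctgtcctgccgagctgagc

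At least 1 window of 5 of the 10 genes held the MEIS motif: Fgd5, Gda, Mecom and Mllt3 (both at the internal start) and Pdzk1ip1, against 19.2% of 32851 RefSeq windows of the same length. The Mecom match began 86 bases before its internal start and the Mllt3 match 50 bases before its own. Hlf, Prdm16, Procr, Slamf1, Ctnnal1 and the upstream starts of Mecom and Mllt3 had no match. The GATA motif AGATAA, the RUNX motif TGTGGT, the ETS motif GGAAGT and the PAR bZIP motif TTACGTAA, all read on both strands, were in 0 of the 10 genes' windows and in 11.2%, 16.8%, 23.8% and 0.119% of all windows. No match therefore overlapped one of another motif. A match is only a run of letters, and Mecom and Mllt3 had 2 windows each in which to find one. The windows were rich in G and C for Fgd5 (71.3%), Ctnnal1 (70.3%), the upstream start of Mllt3 (70.3%) and Hlf (67.3%), and less so at the internal starts of Mecom (49.7%) and Mllt3 (44.7%). The motifs were picked after the expression tables had been read, so their counts are a description.

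The comparison of KO with WT mice asked how loss of Asxl2 related to RNA of these genes in LSK cells of both ages. Mecom, Fgd5 and Gda fell in KO mice, by a fitted 1.8, 1.99 and 2.04 fold, and Slamf1 rose by 1.8 fold. The other 6 genes did not pass the threshold of an adjusted p of 0.05 in edgeR's quasi-likelihood test. Those 4 of 10 compare with 9.98% of all tested genes, of which 3.19% were higher and 6.78% lower in KO. The median log2 fold change of the 10 genes was -0.52, against 0.10 over all tested genes. The count of 4 was 0 with litter as a replicate block, with no batch term, within batch 1 and without old KO replicate 1 or 2 or old WT replicate 2, 1 without young KO replicate 1 or young WT replicate 1, 2 without old WT replicate 1, and 6 within batch 2. Of the 2548 genes called over all, 32.0% were higher in KO mice, against 52.5% of 221 within batch 1, 48.9% of 6787 within batch 2 and 11.8% of 374 with no batch term. A fit within 1 batch has 1 mouse per group, so it barely measures the spread between mice. Its calls and p values, here and below, are not stronger evidence than those of the main fit. In RNA of a bulk sample, fewer stem cells in the gate and less RNA of a gene per cell cannot be told apart.

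**Figure D1:**
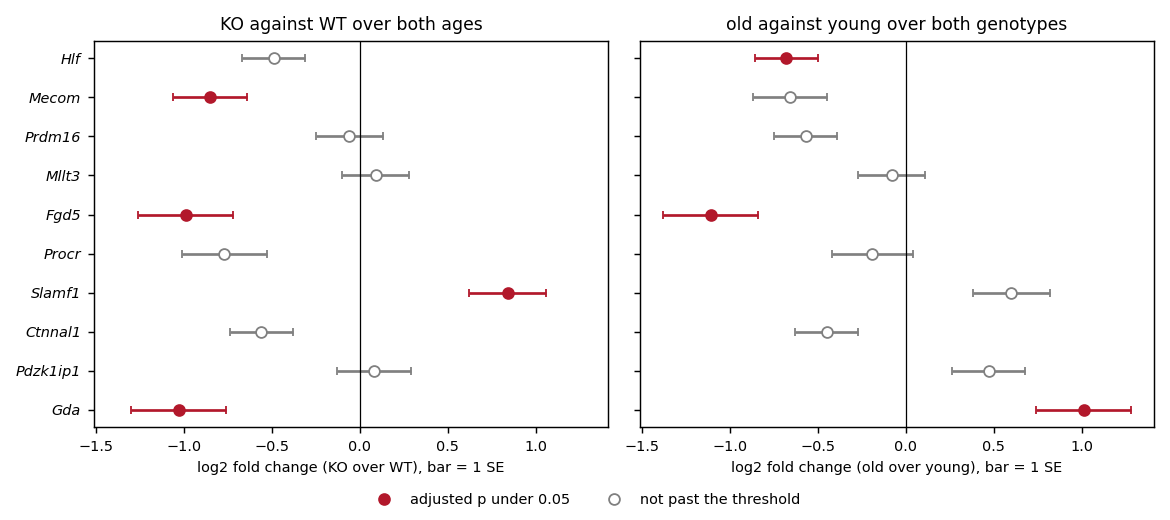
Fitted log2 fold changes of the 10 genes (x axis, bars of 1 SE), KO over WT in the left panel and old over young in the right; filled red points passed an adjusted p of 0.05. In KO mice Mecom (-0.85), Fgd5 (-0.99) and Gda (-1.03) fell and Slamf1 (0.84) rose, and in old mice Hlf (-0.68) and Fgd5 (-1.11) fell and Gda (1.01) rose.

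Among the transcription factors, Mecom encodes a zinc finger protein needed for stem cell self-renewal, whose short product is known as Evi1. Mecom (ENSMUSG00000027684, chromosome 3, 29951296 to 30548008, minus strand) had 14.0 and 20.8 TPM in old KO and 36.2 and 31.5 TPM in young KO libraries, against 40.9 and 44.8 TPM in old WT and 83.5 and 30.5 TPM in young WT libraries. Both old KO libraries lay below every other library, while young WT replicate 2 lay below both young KO libraries, so the groups overlapped. Over both ages Mecom fell by 0.85 log2 units (SE 0.21, adjusted p = 0.0334, edgeR). With the batches fitted apart, at 1 mouse per group, the estimate was -0.52 within batch 1, which did not pass, and -1.24 within batch 2, which did. The call was lost with litter as a replicate block (adjusted p = 0.0595), with a correction for transcript length (0.0587) and without old KO replicate 1 (0.125) or 2 (0.115), young KO replicate 1 (0.0566), old WT replicate 1 (0.0894) or 2 (0.108), or young WT replicate 1 (0.0929).

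Hlf encodes a PAR bZIP factor that marks stem cells and keeps them quiescent. Hlf (ENSMUSG00000003949, chromosome 11, 90336536 to 90390895, minus strand) had 66.8 and 69.2 TPM in old KO and 168 and 119 TPM in young KO libraries, against 127 and 174 TPM in old WT and 205 and 122 TPM in young WT libraries. Old KO libraries were the lowest of the 8, and young KO libraries lay within or just under the WT range. The fitted value was -0.49 (SE 0.18, adjusted p = 0.0957, edgeR), which misses the threshold. Within batch 1 it was -0.26 and did not pass. It passed within batch 2, at -0.82 with 1 mouse per group, and without young WT replicate 2 (-0.65). It also passed with no filter on low counts (-0.50, adjusted p = 0.0164) and with DESeq2 (-0.49, 0.0392).

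Prdm16, a zinc finger relative of Mecom that stem cells need, and Mllt3, a reader of histone acylation in the elongation machinery, gave estimates close to 0. Prdm16 (ENSMUSG00000039410, chromosome 4, 154316125 to 154636873, minus strand) had 12.3 and 9.22 TPM in old KO and 12.8 and 13.9 TPM in young KO libraries, against 12.0 and 12.3 TPM in old WT and 17.7 and 8.36 TPM in young WT libraries. Its lowest and highest libraries were both young WT, and its log2 fold change was -0.06 (SE 0.19, adjusted p = 0.852, edgeR). Mllt3 (ENSMUSG00000028496, chromosome 4, 87769925 to 88033364, minus strand) had 57.2 and 60.2 TPM in old KO and 62.6 and 61.3 TPM in young KO libraries, against 42.4 and 74.0 TPM in old WT and 58.9 and 42.9 TPM in young WT libraries. Its 4 KO libraries lay inside the wider WT range, with a log2 fold change of 0.09 (SE 0.19, adjusted p = 0.791, edgeR).

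Fgd5 encodes an exchange factor for the GTPase Cdc42, and a reporter in it marks stem cells. Fgd5 (ENSMUSG00000034037, chromosome 6, 91978878 to 92076004, plus strand) had 2.98 and 2.70 TPM in old KO and 5.04 and 5.63 TPM in young KO libraries, against 4.44 and 5.72 TPM in old WT and 14.7 and 6.66 TPM in young WT libraries. At each age both KO libraries lay below both WT libraries, although young KO overlapped old WT. Over both ages Fgd5 fell by 0.99 log2 units (SE 0.27, adjusted p = 0.0439, edgeR). With 1 mouse per group, the estimate was -0.38 within batch 1, which did not pass, and -1.70 within batch 2, which did. The call was lost with litter as a replicate block (adjusted p = 0.0767), with the length correction (0.0669) and without old KO replicate 1 (0.0897) or 2 (0.103), young KO replicate 1 (0.0997), old WT replicate 2 (0.133) or young WT replicate 1 (0.0956).

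Procr and Slamf1 encode surface receptors used to sort stem cells: the endothelial protein C receptor (CD201) and the SLAM receptor CD150. Procr (ENSMUSG00000027611, chromosome 2, 155751117 to 155755471, plus strand) had 58.9 and 52.4 TPM in old KO and 96.1 and 84.6 TPM in young KO libraries, against 115 and 196 TPM in old WT and 133 and 124 TPM in young WT libraries. Each KO library lay below each WT library, as for Ctnnal1 and Gda, and 8.08% of tested genes were ordered this way. Its mean was 73.0 ± 20.8 TPM in KO and 142 ± 36.5 TPM in WT mice (SD, n = 4 each), but the fitted value of -0.77 (SE 0.24, adjusted p = 0.0604, edgeR) missed the threshold. Of 20 alternatives Procr passed in 10, among them no filter on low counts, DESeq2, limma on either log2 TPM scale and the average transcript length offset. It passed within batch 2, at -1.07 with 1 mouse per group, and with the length correction, at -0.97 (adjusted p = 0.0343, edgeR). It also passed without young WT replicate 1 (-1.0) or 2 (-0.81) or young KO replicate 2 (-0.90).

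Slamf1 (ENSMUSG00000015316, chromosome 1, 171767127 to 171801184, plus strand) was the only gene of the 10 that rose in KO mice. It had 11.0 and 15.7 TPM in old KO and 14.5 and 10.9 TPM in young KO libraries, against 10.8 and 13.7 TPM in old WT and 7.49 and 3.72 TPM in young WT libraries. The young WT libraries were the 2 lowest of the 8, and old KO and old WT overlapped. The rise was 0.84 log2 units over both ages (SE 0.22, adjusted p = 0.0393, edgeR), 0.97 within batch 1 (adjusted p = 0.407) and 0.63 within batch 2 (adjusted p = 0.0839). The call was lost with litter as a replicate block (adjusted p = 0.0705) and without any 1 of the 8 libraries, with adjusted p from 0.0516 without old KO replicate 2 to 0.166 without young WT replicate 1.

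Ctnnal1, an alpha-catenin relative whose reporter marks stem cells, and Pdzk1ip1, a small membrane protein that binds PDZ domains, did not pass. Ctnnal1 (ENSMUSG00000038816, chromosome 4, 56810935 to 56865188, minus strand) had 5.33 and 8.60 TPM in old KO and 7.52 and 7.49 TPM in young KO libraries, against 8.71 and 9.85 TPM in old WT and 18.0 and 8.64 TPM in young WT libraries. The KO and WT ranges were apart, but only by the step between 8.60 TPM in KO and 8.64 TPM in WT, and the fitted value was -0.56 (SE 0.18, adjusted p = 0.0656, edgeR). Ctnnal1 passed within batch 2 (-0.77, adjusted p = 0.029), without young KO replicate 2 (-0.70, 0.0332) or young WT replicate 2 (-0.64, 0.0354), with no filter on low counts (-0.56, 0.0471) and with DESeq2 (-0.55, 0.0138). Pdzk1ip1 (ENSMUSG00000028716, chromosome 4, 115088708 to 115093899, plus strand) had 261 and 186 TPM in old KO and 173 and 199 TPM in young KO libraries, against 223 and 321 TPM in old WT and 175 and 168 TPM in young WT libraries. Its groups overlapped throughout, with a log2 fold change of 0.08 (SE 0.21, adjusted p = 0.836, edgeR).

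Gda encodes guanine deaminase, an enzyme of purine breakdown. Gda (ENSMUSG00000058624, chromosome 19, 21391307 to 21473445, minus strand) had 2.03 and 1.99 TPM in old KO and 1.46 and 0.759 TPM in young KO libraries, against 4.03 and 7.42 TPM in old WT and 2.73 and 2.17 TPM in young WT libraries. The 4 KO libraries were the 4 lowest. Over both ages Gda fell by 1.03 log2 units (SE 0.27, adjusted p = 0.0366, edgeR). The estimates within batches were -0.87 in batch 1 (adjusted p = 0.66) and -1.30 in batch 2 (adjusted p = 0.00148). It no longer passed with litter as a replicate block (adjusted p = 0.0672), with the length correction (0.0905) and without old KO replicate 1 (0.0824) or 2 (0.106), old WT replicate 2 (0.138) or young WT replicate 1 (0.0506).

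Within litters the direction could be read mouse against littermate. Procr, Hlf, Fgd5, Ctnnal1 and Gda had lower TPM in the KO mouse of 4 of 4 litters, Slamf1 higher in 4 of 4, and Mecom lower in 3 of 4. The log2 TPM ratios of KO over WT in litters 1 to 4 were -0.97, -1.90, -0.55 and -0.47 for Procr. For Gda they were -0.99, -1.90, -1.52 and -0.90, and for Slamf1 0.04, 0.20, 1.55 and 0.95. Both old litters showed larger drops of Procr than the young ones, Gda was lowest against its littermate in litter 2, and Slamf1 differed mainly in the young litters. On the same scale the median over tested genes with a mean of at least 5 TPM was itself below 0, at -0.49, -0.24, -0.07 and -0.21, so ratios near those values are no departure from most genes. Hlf lay near them in litters 3 and 4 (-0.05 and -0.29), Ctnnal1 in litter 2 (-0.20) and Fgd5 in litter 1 (-0.57). The share of all tested genes that were lower in 4 of 4 litters was not counted.

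**Figure D2:**
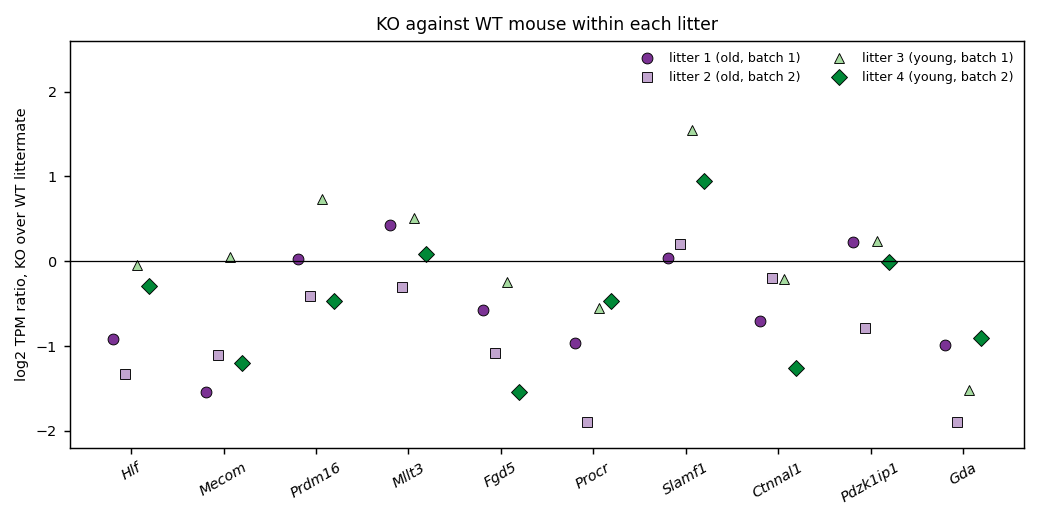
Log2 ratio of TPM in the KO mouse over its WT littermate (y axis) for each of the 10 genes, 1 point per litter. Slamf1 lies above 0 in 4 of 4 litters, and Hlf, Fgd5, Procr, Ctnnal1 and Gda below 0 in 4 of 4, while Mecom ranges from -1.54 to 0.05. The median over tested genes with a mean of at least 5 TPM, which is not drawn, was also below 0 in each litter (-0.49 to -0.07).

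Of 34 other genes known from stem cells, 13 fell and 3 rose in KO mice, with a median log2 fold change of -0.71, against 0.10 over all tested genes. The 3 largest falls that passed were in Mmrn1, a matrix protein of platelets and stem cells, Rarb, a retinoic acid receptor, and Pde1b, a cyclic nucleotide phosphodiesterase. Mmrn1 had 7.0, 13.3, 11.8 and 6.37 TPM in KO, against 48.2, 135, 127 and 31.4 TPM in WT libraries, and fell by 2.85 log2 units (SE 0.21, adjusted p = 0.000304, edgeR). Rarb fell by 1.58 (adjusted p = 0.0189) and Pde1b by 1.41 (adjusted p = 0.0132). The 3 that rose were Gstm2, a glutathione transferase (1.38, adjusted p = 0.0191), Ly6a (0.90, 0.0321) and the interferon-induced membrane protein gene Ifitm1 (0.81, 0.0262). Of 20 alternatives Mmrn1 passed in 20, Pde1b in 18, Rarb in 17, Gstm2 in 16, and Ly6a and Ifitm1 in 12 each. With litter as a replicate block 7 fell and 2 rose, and leaving out 1 library changed the 13 that fell to 4 without old KO replicate 1, 6 without old KO replicate 2, 7 without young KO replicate 1 or young WT replicate 1, 1 without old WT replicate 2 and 20 without young WT replicate 2.

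Markers of other cells moved too, and those named here were picked after their values were seen. Of 8 erythroid genes 7 fell in KO mice, with a summed level of 62.7 to 487 TPM in KO and 257 to 1190 TPM in WT libraries. That count was 2 with litter as a replicate block or litter 1 left out, 1 with no batch term, 4 within batch 1 and 7 within batch 2, and 1 without old KO replicate 1 or without old WT replicate 2. The mast cell genes Cma1 (0.456 to 1.32 TPM in KO, 3.72 to 28.2 TPM in WT), Tpsb2 (0.17 to 2.47 TPM in KO, 6.59 to 38.1 TPM in WT) and Cpa3 (7.87 to 15.4 TPM in KO, 18.5 to 35.7 TPM in WT) fell. Mcpt8, the fourth gene of that list, did not pass (0.35, adjusted p = 0.545, edgeR) and averaged 44.4 TPM in KO and 33.8 TPM in WT mice. Of the 3 mast cell calls, 1 was left without old KO replicate 1 and 0 without old WT replicate 2. Among genes of multipotent and lymphoid-primed progenitors Cd48 and Cd53 rose and Flt3 fell, and 0 of that list passed without old KO replicate 2 or old WT replicate 2, nor did Flt3 without old KO replicate 1, young KO replicate 1 or old WT replicate 1. Of the 4 genes of the LSK gate Ly6a rose and Kit fell. Neither passed with litter as a replicate block, with the length correction or without old KO replicate 1, old WT replicate 1 or 2, or young WT replicate 1, and Kit did not without old KO replicate 2 or young KO replicate 1. Of 7 endothelial genes tested Emcn fell, with 2.84 to 18.4 TPM in KO and 21.2 to 29.3 TPM in WT libraries, a call lost without old KO replicate 1 or old WT replicate 2. Of the other endothelial genes, Egfl7 averaged 544 TPM in KO and 498 TPM in WT mice and Tie1 27.2 TPM in KO and 49.0 TPM in WT mice, while Cdh5 and Stab2 were under 0.5 TPM in every library. Endothelium also expresses Mecom, Fgd5 and Procr. Of 8 megakaryocyte genes Gp1bb rose, and 0 passed without old KO replicate 1 or old WT replicate 2. Neutrophil genes summed to 62.8 to 1570 TPM in KO and 8.64 to 1080 TPM in WT libraries, which overlapped. The part of erythroid, mast cell, endothelial and progenitor RNA in the results for the 10 genes was not tested.

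The comparison of old with young mice asked how the genes differed with age, over both genotypes. Age differed only between litters, with 1 old and 1 young litter in each of 2 batches, and the fit took littermates as separate mice. Hlf and Fgd5 fell in old mice and Gda rose, and the other 7 genes did not pass. These 3 of 10 compare with 13.9% of tested genes, of which 4.34% were higher and 9.61% lower in old mice. The balance of directions turned with the libraries used: 31.1% of the 3563 called genes were higher in old mice, against 80.9% of 2558 within batch 1, 46.4% of 1909 within batch 2, 59.0% of 3621 without young KO replicate 1, 51.6% of 341 without old KO replicate 2, 71.7% of 53 without young KO replicate 2, 85.3% of 68 without old KO replicate 1, 84.4% of 45 with litter 1 left out and 85.7% of 42 with limma on log2(TPM + 1). Of the 10 genes, 0 passed without old KO replicate 1, young KO replicate 2 or young WT replicate 1, 1 without old KO replicate 2, 2 without young KO replicate 1 or old WT replicate 1, and 5 without young WT replicate 2. The median log2 fold change of the 10 genes was -0.32, against 0.15 over all tested genes. The TPM ranges of old and young libraries overlapped for all 10 genes, while 6.14% of tested genes had ranges apart.

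Hlf averaged 109 ± 51.3 TPM in old and 153 ± 41.0 TPM in young mice (SD, n = 4 each), and fell by 0.68 log2 units (SE 0.18, adjusted p = 0.0347, edgeR). The 2 old KO libraries were the lowest, while old WT replicate 2, at 174 TPM, exceeded 3 of the 4 young libraries. Apart, the batches gave -0.67 in batch 1 (adjusted p = 0.0959) and -0.74 in batch 2 (adjusted p = 0.0081). It did not pass without old KO replicate 1 (adjusted p = 0.131) or 2 (0.154), young KO replicate 1 (0.0616) or 2 (0.145), old WT replicate 1 (0.0624), or young WT replicate 1 (0.0725).

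Fgd5 averaged 3.96 ± 1.40 TPM in old and 8.00 ± 4.50 TPM in young mice (SD, n = 4 each), and fell by 1.11 (SE 0.27, adjusted p = 0.0292, edgeR). Within each genotype both old libraries lay below both young ones, and old WT replicate 2, at 5.72 TPM, exceeded both young KO libraries. Its estimate was -1.01 in batch 1 (adjusted p = 0.0663) and -1.11 in batch 2 (adjusted p = 0.00411). This call ended without old KO replicate 1 (adjusted p = 0.116) or 2 (0.0665), young KO replicate 2 (0.149) or young WT replicate 1 (0.0876).

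Gda averaged 3.87 ± 2.55 TPM in old and 1.78 ± 0.858 TPM in young mice (SD, n = 4 each), and rose by 1.01 (SE 0.27, adjusted p = 0.0352, edgeR). Old KO libraries, at 2.03 and 1.99 TPM, lay above young KO but below young WT, so old and young libraries were apart within each genotype and overlapped across them. It was 0.96 within batch 1 (adjusted p = 0.145) and 0.96 within batch 2 (adjusted p = 0.0556). The rise missed the threshold without old KO replicate 1 (adjusted p = 0.129), young KO replicate 2 (0.134), old WT replicate 2 (0.0895) or young WT replicate 1 (0.0967).

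Mecom (-0.66, SE 0.21, adjusted p = 0.0541) and Prdm16 (-0.57, SE 0.18, adjusted p = 0.0574) came close to the threshold with age in the edgeR test. Mecom passed within batch 2 (-0.80, adjusted p = 0.00981) and without young WT replicate 2 (-0.93, 0.00162), as did Prdm16 without young WT replicate 2 (-0.70, 0.0211) and Procr without old WT replicate 2 (-0.58, 0.0295). Slamf1 gave 0.60 (adjusted p = 0.0808), Ctnnal1 -0.45 (0.0956), Pdzk1ip1 0.47 (0.122), Procr -0.19 (0.55) and Mllt3 -0.08 (0.762). The estimate for Pdzk1ip1 was -0.13 with the length correction. Leaving out litter 1, the litter with Xist RNA, ended all 3 calls with age, at adjusted p of 0.425 for Hlf, 0.386 for Fgd5 and 0.416 for Gda, and all 4 calls between KO and WT. Without the batch term none of the 7 calls remained, with adjusted p of 0.0738 to 0.113 between KO and WT and 0.0542 to 0.07 with age. On log2(TPM + 1), limma kept the call of Gda between KO and WT (adjusted p = 0.0479) and no other of the 7. An offset for average transcript length ended the calls of Fgd5 (adjusted p = 0.0777) and Slamf1 (0.0535) between KO and WT and of Hlf with age (0.0598). DESeq2 called 7 of the 10 genes between KO and WT and 6 with age, but it also called more of all genes. Its totals were 5090 genes between KO and WT, against 2548 in edgeR, and 6619 with age, against 3563.

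**Figure D3:**
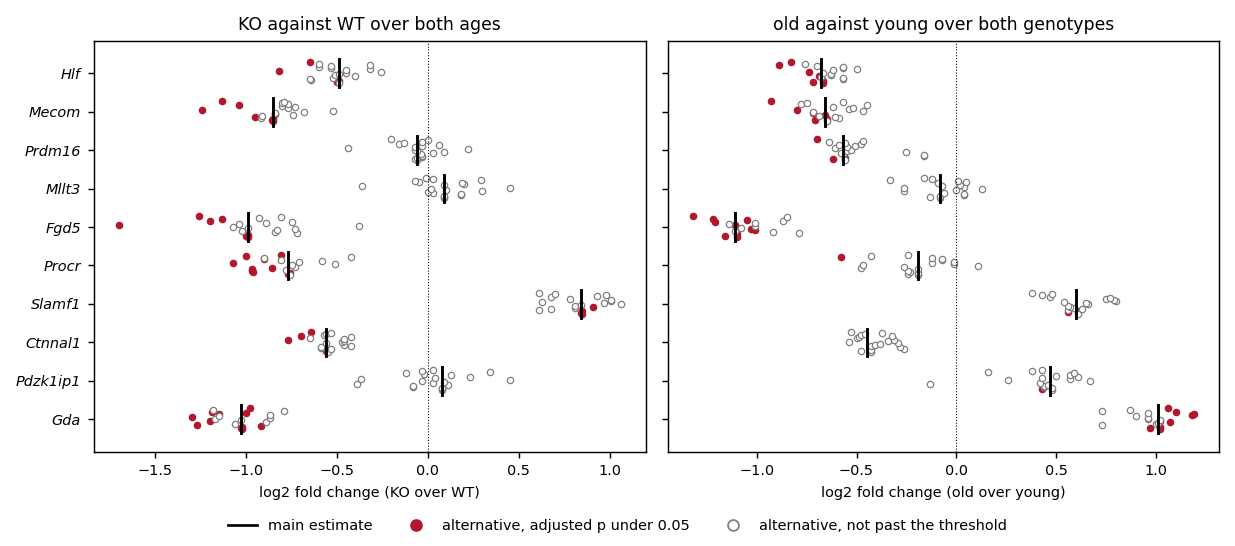
Log2 fold changes of the 10 genes under each alternative setting (points, x axis) with the reported estimate as a black bar, KO over WT on the left and old over young on the right; filled red points passed an adjusted p of 0.05. Slamf1 stays above 0 and Mecom, Fgd5, Hlf, Procr, Ctnnal1 and Gda below 0 in every KO-over-WT alternative, while calls come and go. Prdm16, Mllt3 and Pdzk1ip1 lie on both sides of 0.

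Among the 34 other stem cell genes, 5 rose and 6 fell in old mice, with a median of 0.20 against 0.15 over all tested genes. The highest that passed were Aldh1a1, a retinaldehyde dehydrogenase (2.53, adjusted p = 0.00102, edgeR), Gstm2 (2.33, 0.00442) and the progesterone receptor gene Pgr (2.24, 0.0149). Aldh1a1 averaged 61.3 ± 8.60 TPM in old and 11.2 ± 4.59 TPM in young mice (SD, n = 4 each), with no overlap. The lowest were the guidance receptor gene Robo4 (-1.01, adjusted p = 0.0258), Kit (-0.93, 0.0324) and the tetraspanin gene Cd82 (-0.87, 0.0292). Of 19 alternatives Aldh1a1 and Gstm2 passed in 19, Pgr in 15, Kit in 11, Robo4 in 10 and Cd82 in 9. The count of 6 that fell was 0 without old KO replicate 1 or 2, young KO replicate 2 or young WT replicate 1, 3 without old WT replicate 1, 8 without young KO replicate 1, 11 without old WT replicate 2 and 10 without young WT replicate 2. With the length correction the median was -0.13, against -0.14 over all tested genes.

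Markers of other cells were mixed with age, and those named, with log2 fold changes of old over young mice, were again picked after their values were seen. The erythroid genes Hbb-bs (-3.23), Hba-a1 (-3.09) and Hba-a2 (-3.10) fell in old mice. Of 6 T cell genes Cd4 (-1.14) and Lck (-0.63) fell, while Cd3e (1.15), Cd3d (1.23), Cd3g (2.19) and Cd8a (1.51) had positive estimates that did not pass, and the list's median was 1.19, against 0.15 over all tested genes. Of 7 endothelial genes Kdr rose, with 0.832 TPM in old and 0.289 TPM in young mice, but the list's median was -0.43, and the estimates of Emcn (-0.96), Tie1 (-0.79), Plvap (-0.62) and Egfl7 (-0.43) did not pass. Of 8 megakaryocyte genes Gp1bb (1.57) and Itgb3 (2.07) rose, with a list median of 0.54. Of the 4 gate genes Kit (-0.93) and Cd34 (-0.50) fell, and Ly6a (0.65) did not pass. Among the progenitor genes Flt3 (-1.0) and Notch1 (-1.04) fell, with a list median of -0.02. Without young KO replicate 2, 0 erythroid, T cell, endothelial, gate and megakaryocyte genes passed, and without old KO replicate 1 the same lists gave 0 but for 1 megakaryocyte gene. The T cell, gate and endothelial lists also gave 0 without old KO replicate 2 or young WT replicate 1, the T cell list 0 without old WT replicate 1, and the erythroid list 1 without young WT replicate 1. The part of RNA from these cells in the age results was not tested.

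Within 1 age or 1 genotype, 0 of the 10 genes passed in edgeR's test with 2 mice a group. The share of all tested genes that passed was 0.65% for KO against WT in old mice, 0.0626% in young mice, and 0.0861% for old against young in KO and in WT mice alike. At an unadjusted p under 0.05 there were 5 of the 10 genes for KO against WT in old mice (21.2% of tested genes), 3 in young mice (9.46%), 4 for age in KO mice (24.4%) and 3 for age in WT mice (13.9%). DESeq2 called 4, 1, 2 and 1 of the 10 in the same order, and 2783, 293, 2682 and 334 of all genes. These comparisons share groups of mice, so their values are given side by side only.

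In old mice Procr averaged 55.6 ± 4.58 TPM in KO and 156 ± 56.8 TPM in WT mice (SD, n = 2 each), a log2 fold change of -1.18 (SE 0.30, adjusted p = 0.0767, edgeR). Its value in young mice was -0.37 (adjusted p = 0.683). Mecom gave -1.13 (adjusted p = 0.0757) in old and -0.57 (0.549) in young mice, and Hlf -0.79 (0.0967) in old and -0.19 (0.802) in young mice. Without young WT replicate 1 the young values turned to 0.08 for Mecom and 0.01 for Hlf. Slamf1 gave 0.34 (adjusted p = 0.462) in old and 1.35 (0.173) in young mice.

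For age, Hlf averaged 68.0 ± 1.71 TPM in old KO and 143 ± 34.8 TPM in young KO mice (SD, n = 2 each), a log2 fold change of -0.98 (SE 0.23, adjusted p = 0.111, edgeR), and its value in WT mice was -0.38 (0.455). Mecom gave -0.94 (adjusted p = 0.123) in KO and -0.38 (0.538) in WT mice, the second being 0.32 without young WT replicate 1. Gda gave 0.92 (adjusted p = 0.189) in KO and 1.10 (0.322) in WT mice. The differences between the ages were tested as a genotype by age interaction, in which 0 of 10 genes and 0.00391% of tested genes passed, DESeq2 called 0 of the 10, and each of the 10 had an adjusted p of 1. Slamf1 alone of the 10 had an unadjusted p under 0.05 there (-1.01, SE 0.36), as did 1.98% of tested genes.

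Below the level of genes, the RNA of several of these genes was split among transcripts. Hlf-203, annotated as a processed transcript and not as protein coding, held 57.3% of Hlf's mean TPM and 48.6% of its estimated counts. The protein-coding Hlf-201 held 22.7% and 46.1%. Procr-201 held 70.0% of Procr's mean TPM, Slamf1-201 96.1% of Slamf1's and Ctnnal1-201 87.4% of Ctnnal1's. No transcript of Mecom held more than 16.0%, and the one with that share, Mecom-201, is 348 bases long and had 0.5% of the estimated counts. Fgd5-201, the longest protein-coding form of Fgd5, held 57.8% and had 1.71, 1.38, 2.08 and 2.73 TPM in KO, against 2.31, 3.0, 11.0 and 3.51 TPM in WT libraries. Young WT replicate 1, at 11.0 TPM, was far above the rest. Gda was split between Gda-202 (54.2%) and Gda-201 (39.5%), and Gda-202 had 0.321 to 0.834 TPM in KO, against 1.42 to 4.06 TPM in WT libraries, with no overlap. Such splits are kallisto's estimates from reads that several transcripts share.

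Mecom and Mllt3 each have an upstream and an internal RefSeq start, whose windows are printed above, and transcripts were assigned to a start within 1000 bases. In Mecom the upstream start gives the long product with a PR domain. Its share of Mecom's TPM was 49.6% and 44.4% in old KO and 37.7% and 35.1% in young KO libraries, against 35.6% and 36.1% in old WT and 36.8% and 35.6% in young WT libraries. The old KO libraries, where Mecom was lowest, had the highest share, and the other 6 lay within 35.1% to 37.7%. Their share from the internal start was also the highest, at 25.3% and 21.1%, against 15.2% to 20.3% in the other 6. What was lower in old KO libraries was the share from other starts, at 25.1% and 34.6%, against 43.6% to 49.3%. In Mllt3, whose total did not pass, the upstream share was 33.3%, 31.7%, 30.4% and 36.7% in KO, against 51.0%, 38.9%, 39.8% and 46.2% in WT libraries. All 4 KO libraries lay below all 4 WT libraries, with means of 33.0 ± 2.74% in KO and 44.0 ± 5.73% in WT mice (SD, n = 4 each). By estimated counts, which weigh long transcripts more, the means were 58.8 ± 2.29% in KO and 69.3 ± 3.51% in WT mice (SD, n = 4 each). Old and young libraries overlapped, at 38.7 ± 8.77% in old and 38.3 ± 6.61% in young mice (SD, n = 4 each). These classes were drawn after the transcript values had been seen, so the shares are given without a test. The old KO libraries, whose length slopes were the steepest (-0.95 and -0.82), had the highest upstream share of Mecom, while in Mllt3 the upstream share was lower in KO libraries, whose slopes were all steeper than those of WT libraries. The part of the length slope in either share was not tested.

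**Figure D4:**
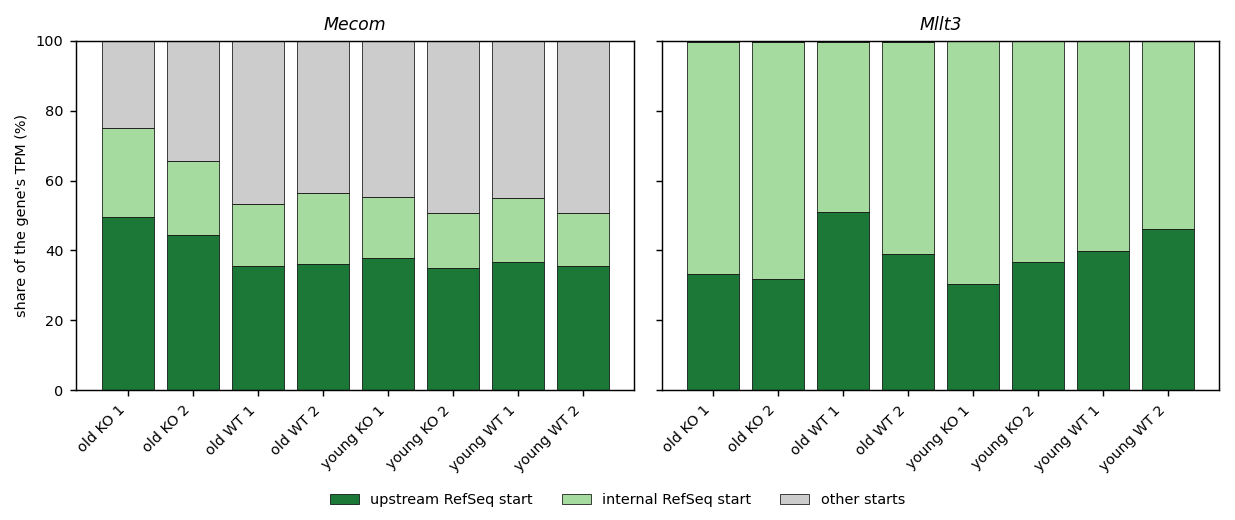
Share of a gene's TPM (y axis, percent) from transcripts starting at the upstream RefSeq start, the internal RefSeq start and elsewhere, stacked for each of 8 libraries, for Mecom and Mllt3. The upstream share of Mllt3 is 30.4% to 36.7% in KO and 38.9% to 51.0% in WT libraries. For Mecom both the upstream and the internal share are highest in the 2 old KO libraries, and the share from other starts is lowest there.

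The 10 genes did not all vary together over the 8 libraries. On log2(TPM + 1), the gene most like Hlf was Mecom (Pearson r = 0.92, n = 8 libraries), and Mecom was also the most like Ctnnal1 (0.89) and Fgd5 (0.88). Hlf was the most like Procr (0.85), Gda the most like Pdzk1ip1 (0.65) and Slamf1 the most like Mllt3 (0.64). Slamf1 ran against Fgd5, at -0.52. Among 9824 other protein-coding genes with a mean of at least 5 TPM, those most like the mean standardised profile of the 10 were Insig2 (r = 0.969), Ifrd1 (0.964), Pcf11 (0.963), the predicted gene Gm21060 (0.961) and Chd2 (0.955). Chd2, a chromatin remodeller, had 32.9 to 48.4 TPM in KO and 38.5 to 79.5 TPM in WT libraries. That profile was highest in old WT replicate 2 (0.94) and young WT replicate 1 (0.85), and lowest in both old KO libraries (-0.57 each). These correlations are descriptions over libraries that share their groups, depth and length slope.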

How the data were processed

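The authors deposited 1 table per library with, per the file headers, estimated counts, TPM and lengths in bases for 115088 transcripts. The submitters' processing notes name kallisto, mm10 and DESeq2, and give no versions.

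Transcripts were matched by identifier to GENCODE vM21 (the same build): 114200 matched 47311 genes, and the 888 others held 0.259% to 0.47% of counts. Per gene, the sums of the deposited estimated counts were rounded, and those of the deposited TPM were not. Genes passing edgeR's filterByExpr (minimum count 10, total 15; 25543 genes) were scaled by TMM and tested by quasi-likelihood in edgeR 4.0.16 (R 4.3.3), with Benjamini-Hochberg adjustment over all 25543 and a threshold of 0.05. The effects over both ages or genotypes came from an additive fit of genotype, age and batch, with 4 residual degrees of freedom, and those within an age or genotype, and the interaction, from 4 groups and batch, with 3. SE was worked back from the test, as the size of the log2 fold change over the square root of its F statistic. The model was tested on simulated data, where it recovered large changes but missed some of about the size reported here. The recovery required of it was lowered after that was seen, and a gene that did not pass is not shown to be unchanged. The simulated counts had less spread between mice than these data (a dispersion of 0.05, against 0.134 in the additive fit). They held no batch or litter effects, and the changes were set in well-counted genes only. Recovery in the simulation therefore does not give the recovery in these data. Alternatives used DESeq2 1.42.0 and limma 3.58.1 on log2(TPM + 1) or log2(TPM + 0.1), among 20 settings. Plots were drawn with matplotlib 3.10.9 and tables made with numpy 2.4.6 and pandas 2.3.3 in Python 3.11.15.

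Depth was at least 45737972 estimated counts, and mice of a group differed by a chi-square of 74.8 to 231 per degree of freedom, where counting error gives 1. The labels pair KO and WT mice by litter. Littermates' deviations from their group means correlated at 0.08 in old and 0.26 in young litters. For KO against WT, the value or count with litter as a replicate block stands beside each call of the 10 genes and each list count that it changed. Age could not be fitted with that block, because the mice of a litter were of the same age, so the age calls have no such value.

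The genes, lists and tests were chosen with earlier results of these data known. Named were the 10 genes and Asxl2, transcripts with at least 10% of a gene's TPM, the 5 genes most like the profile, and the 3 highest and 3 lowest of the other stem cell genes past the threshold. Kit, Ly6a, Cdh5, Stab2, Xist and the other library checks were added. Some marker genes are not reported here.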

Additional observations from a re-analysis of the deposited data

Results flagged for a closer look

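Single libraries stood apart from the other 3 of a set of 4 in 5 of 40 sets tested, each set being the 4 KO, 4 WT, 4 old or 4 young libraries for 1 of the 10 genes, and Dixon's test at its 95% level flags about 1 in 20 sets by chance. Each set mixes 2 ages or 2 genotypes. Among young libraries, young WT replicate 1 was high for Mecom (83.5 TPM), Fgd5 (14.7 TPM) and Ctnnal1 (18.0 TPM). Among WT libraries it was high for Ctnnal1 again (18.0 TPM). Among old libraries, old KO replicate 2 was low for Prdm16 (9.22 TPM). Young WT replicate 1 also had the shallowest slope of log2 TPM on log2 transcript length (-0.29) and the fewest genes with a count (26237); the part of either in these levels was not tested.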

How the results depend on the processing

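Over both ages, 2548 genes and 4 of the 10 differed between KO and WT. The counts were 4237 and 7 with no filter on low counts, 5090 and 7 with DESeq2, 374 and 0 with no batch term, 1029 and 2 with the length correction, 1162 and 0 with litter as a replicate block, 262 and 0 with litter 1 left out, 221 and 0 within batch 1, and 83 to 4924 and 0 to 6 leaving out 1 library (83 without old WT replicate 2, 4924 without young WT replicate 2). Within batch 2, 6787 genes passed, and limma on log2(TPM + 1) called 2 of the 10. For old against young, 3563 genes and 3 of the 10 passed: 6489 and 7 with no filter, 6619 and 6 with DESeq2, 42 and 0 with limma on log2(TPM + 1), 60 and 0 on log2(TPM + 0.1), 168 and 0 with no batch term, 45 and 0 with litter 1 left out, 0 of the 10 within batch 1, 1909 genes within batch 2, and 53 to 5272 and 0 to 5 leaving out 1 library.

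Within old mice, 166 genes and 0 of the 10 differed by genotype: 2515 and 5 with no filter, 2783 and 4 with DESeq2, 1553 and 2 with limma on log2(TPM + 1), 1242 and 2 on log2(TPM + 0.1), 704 and 2 with the length correction, 0 genes with no batch term, 12 with the replicate block, 59 with litter 1 left out, and 6 to 3709 and 0 to 5 leaving out 1 library. Within young mice, 16 genes and 0 of the 10 passed: 421 and 1 with no filter, 293 and 1 with DESeq2, 42 and 1 with the length correction, 0 genes with either limma setting or no batch term, 3 with the replicate block, 38 with litter 1 left out, and 0 to 1269 and 0 to 2 leaving out 1 library. For age in KO mice, 22 genes and 0 of the 10 passed: 2938 and 4 with no filter, 2682 and 2 with DESeq2, 1193 and 2 with the length correction, 4 genes with either limma setting, 6 with no batch term, 35 with litter 1 left out, and 7 to 3744 and 0 to 3 leaving out 1 library. For age in WT mice, 22 genes and 0 of the 10 passed: 1015 and 2 with no filter, 334 and 1 with DESeq2, 53 genes with the length correction, 2 with either limma setting or no batch term, 42 with litter 1 left out, and 19 to 1522 and 0 to 2 leaving out 1 library. The interaction had 1 gene: 75 with no filter, 7 with DESeq2, 2 with the length correction, 9 with litter 1 left out, 0 with either limma setting or no batch term, and 0 to 27 leaving out 1 library, with 0 of the 10 in each. RLE size factors and the average transcript length offset moved no count of genes by over 1.5 times.

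Of single genes between KO and WT, Prdm16 turned positive with the length correction (0.03), the average transcript length offset (0.09), within batch 1 (0.22) and without young KO replicate 1 (0.06). Mllt3 turned negative within batch 2 (-0.36) and without young KO replicate 2 (-0.05), old WT replicate 1 (-0.07) or young WT replicate 2 (-0.01). Pdzk1ip1 turned negative with either limma setting (-0.08 each), the length correction (-0.39), litter 1 left out (-0.03), within batch 2 (-0.37) and without young KO replicate 2 (-0.02), old WT replicate 1 (-0.12) or young WT replicate 1 (-0.03). With age, Mllt3 turned positive with either limma setting (0.04 each), litter 1 left out (0.13), within batch 2 (0.04) and without old KO replicate 2 (0.02), young KO replicate 2 (0.05) or old WT replicate 1 (0.01). Procr turned positive with litter 1 left out (0.11) and Pdzk1ip1 negative with the length correction (-0.13). Without young WT replicate 1, KO over WT in young mice was 0.01 for Hlf and 0.08 for Mecom, and old over young in WT mice was 0.32 for Mecom. None of these turned values passed the threshold. Leaving out 1 library gave -0.20 to 0.06 for Prdm16, -0.07 to 0.29 for Mllt3 and -0.12 to 0.34 for Pdzk1ip1 between KO and WT, -0.33 to 0.05 for Mllt3 with age, -0.35 to 0.01 for Hlf and -1.09 to 0.08 for Mecom between KO and WT in young mice, and -0.89 to 0.32 for Mecom with age in WT mice.

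The length correction moved the median of all tested genes to -0.05 for KO against WT, from 0.10, and to -0.14 for age, from 0.15; those of the 10 genes were -0.41 and -0.44. It also moved the share of calls that were higher for age in KO mice to 18.6%, from 72.7%, and for KO against WT in young mice to 23.8%, from 12.5%. With 2 mice a group, leaving 1 out leaves a lone mouse that is assumed to vary like the others, and litter and batch cannot be told apart within an age. Fits within 1 batch have a lone mouse in every group. The causes of these changes were not tested. Counting error was small beside the spread between mice.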
